A study of Mus musculus with 14 samples.

Results

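The mitochondrially encoded subunits of complex I are 7 transcripts, mt-Nd1, mt-Nd2, mt-Nd3, mt-Nd4l, mt-Nd4, mt-Nd5 and mt-Nd6, chosen by name from the 35275 genes of an RNA sequencing table of mouse brown adipose tissue. All 7 were found and all 7 passed the filter on low values. Every animal was 8 weeks old, of strain C57BL/6, and carried floxed Lrpprc alleles (genotype LrpprcFF). Knockouts also carried Ucp1-Cre, a recombinase transgene driven by the promoter of the brown fat uncoupling protein, and controls lacked it. There were 4 controls and 4 knockouts housed at 22 °C, room temperature, and 3 controls and 3 knockouts housed at 30 °C, thermoneutrality. RNA came from homogenized tissue, so cells that never express Ucp1, and keep Lrpprc, can contribute to every library. The labels name brown adipocytes but describe no step that isolates them. In such samples fewer cells of a type and less RNA per cell cannot be told apart.

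Complex I takes electrons from NADH, passes them to ubiquinone and pumps protons across the inner mitochondrial membrane. Its membrane arm is built around the products of these genes: mt-Nd1 forms the seat of the ubiquinone site, mt-Nd3, mt-Nd6, mt-Nd4l and mt-Nd2 the part of the arm next to it, and mt-Nd4 and mt-Nd5 the far end. All but mt-Nd6 are cut from a long precursor transcribed from one strand of the circular mitochondrial DNA, whereas mt-Nd6 is transcribed from the other strand. LRPPRC is an RNA-binding protein that works with SLIRP to stabilise mitochondrial messenger RNAs and keep them polyadenylated, and mt-Nd6 is known as the transcript that depends on it least.

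The transcript sequences, read from the GENCODE M21 mouse annotation, show what sets mt-Nd6 apart and where members run into each other. The opening 120 bases are given for mt-Nd2, mt-Nd5 and mt-Nd6, because mt-Nd2 fell further than the other two in the tests of pairs, with every G in capitals.
mt-Nd2 start: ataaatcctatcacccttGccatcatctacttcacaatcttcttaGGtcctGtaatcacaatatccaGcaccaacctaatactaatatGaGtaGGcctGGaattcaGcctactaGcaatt
mt-Nd5 start: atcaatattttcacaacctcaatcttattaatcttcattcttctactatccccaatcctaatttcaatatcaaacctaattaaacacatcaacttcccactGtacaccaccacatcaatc
mt-Nd6 start: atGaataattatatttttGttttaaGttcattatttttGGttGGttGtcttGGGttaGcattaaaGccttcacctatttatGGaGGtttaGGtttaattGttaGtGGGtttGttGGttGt
These windows hold 13, 1 and 28 G respectively. Over its whole length mt-Nd6, annotated on the minus strand, had 28.1% G and 5.97% C. The other 6, annotated on the plus strand, had 8.00% G (mt-Nd2) to 11.6% G (mt-Nd1). mt-Nd5 had 9.98% G, so over the whole length its share exceeded that of mt-Nd2, unlike in the windows.

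Neighbouring members overlap at their ends, shown here over 40 bases with the shared bases in capitals, since a read across an overlap belongs to both.
mt-Nd4l end: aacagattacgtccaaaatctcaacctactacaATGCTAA
mt-Nd4 start: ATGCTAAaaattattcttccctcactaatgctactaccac
mt-Nd5 end: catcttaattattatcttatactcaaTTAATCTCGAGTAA
mt-Nd6 end: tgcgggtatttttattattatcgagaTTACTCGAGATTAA
The last 7 bases of mt-Nd4l are the first 7 of mt-Nd4, on one strand. The last 14 bases of mt-Nd5 are the reverse complement of the last 14 of mt-Nd6, so those transcripts run towards each other. The sources used here do not give whether counting used strand. Reads from mt-Nd6 and from RNA antisense to it therefore cannot be told apart.

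Lrpprc itself was measured first as a check of the labels. Its FPKM (fragments per kilobase of gene per 1 M fragments, the authors' unit) was 47.1, 43.9, 32.1 and 23.2 in the 22 °C controls and 11.8, 12.5, 9.34 and 11.5 in the 22 °C knockouts. The 30 °C values were 28.6, 29.6 and 31.0 in controls and 8.24, 5.95 and 9.91 in knockouts. Every knockout lay below every control. The libraries held 15.9 to 21.3 M fragments, and the 7 members took 4.60% to 6.95% of them in controls and 0.435% to 1.20% in knockouts. Among markers, brown adipocyte genes (7 genes) summed to 15394 to 19006 FPKM in controls and 15418 to 19649 in knockouts at 22 °C, and to 11848 to 14486 against 7944 to 10327 at 30 °C. Macrophage genes (9 genes) summed to 56.2 to 94.7 in controls and 119 to 266 in knockouts at 22 °C, and to 137 to 445 against 842 to 2225 at 30 °C. Neither list had a gene at 0 in all libraries. All marker sums here are of FPKM as deposited, without the library scaling used for the fold changes below. As deposited, the genotypes overlapped in the brown adipocyte sum at 22 °C and did not at 30 °C. In the macrophage sum they did not overlap at either. That scaling divides the 22 °C controls by 0.823 to 0.918 and the 22 °C knockouts by 1.05 to 1.12. With it, 5 of the 7 brown adipocyte genes were lower in knockouts at 22 °C, with a median log2 fold change of -0.14. The part of other cells in the members' falls was not tested. Skeletal muscle genes (8 genes) ranged from 18.5 to 11290 FPKM within the 30 °C controls alone and from 2133 to 8611 in the 30 °C knockouts. They summed to 388, 318, 4949 and 3096 in replicates 1 to 4 of the 22 °C controls, and to 485 to 1248 in the 22 °C knockouts. All 8 animals at 22 °C had Ddx3y, a Y-linked gene, at 14.5 to 23.1 FPKM and Xist at no more than 0.0141, and all 6 at 30 °C had Xist at 9.01 to 18.4 and Ddx3y at no more than 0.0244. Temperature and sex therefore cannot be told apart in any comparison between 22 and 30 °C.

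The knockout against control comparison asks how far each transcript falls when Lrpprc is lost. All 7 fell at both temperatures, to 6.86% to 12.6% of the control level at 22 °C and to 8.98% to 14.1% at 30 °C. Lower calls made up 1.06% of the 13079 genes tested at 22 °C and 5.28% at 30 °C. Knockouts and controls did not overlap for any of the 7 at either temperature, against 4.53% and 14.6% of all genes with knockouts wholly below controls. These fold changes, and all below, come from limma on log2 of scaled FPKM plus 1, with libraries scaled on nuclear genes and p-values adjusted by Benjamini-Hochberg over all genes tested; "called" means an adjusted p under 0.05.

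mt-Nd1, at the ubiquinone site, was the most abundant member in every group. At 22 °C its FPKM was 19313, 18321, 15216 and 22911 in controls and 2368, 2233, 1688.5 and 1962 in knockouts. In the 30 °C animals it was 15227, 18883 and 20292 in controls and 2973, 1320 and 3664 in knockouts. The 2 genotypes were far apart at both temperatures, and relative to its mean the 30 °C knockout group was the most spread of the 4 (SD of 45.4% of the mean). On the log2 scale it changed by -3.50 (SE 0.27) at 22 °C, with an adjusted p of 7.99e-06 by limma. The change was -3.19 (SE 0.31) at 30 °C, with an adjusted p of 0.000122.

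mt-Nd2, one of the proton-pumping subunits, had the lowest estimate at 30 °C and lay beside mt-Nd4 at the bottom at 22 °C. Controls at 22 °C had 15632, 14987, 10317 and 12538 FPKM and knockouts 1128, 1353, 890 and 1146. Controls at 30 °C had 10960, 14178 and 15254, and knockouts 1685, 767 and 2467. Its knockout level was 6.86% of control at 22 °C (log2 fold change -3.87, SE 0.30) and 8.98% at 30 °C (-3.48, SE 0.35). It ranked 2 and 4 from the bottom among the 13079 fold changes of the 2 comparisons. With quantile normalization the 22 °C change was -2.91, and mt-Nd4l (-3.09), mt-Nd3 (-2.96) and mt-Nd4 (-2.92) were lower.

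mt-Nd4 and mt-Nd5 encode the pumping subunits at the far end of the arm. For mt-Nd4 the 22 °C controls had 11268, 10419, 7693 and 14326 FPKM and the knockouts 871, 1140, 745 and 906. Its 30 °C controls had 5833, 10531 and 8916 and its knockouts 1394, 626 and 2058. The change was -3.86 on the log2 scale (SE 0.33) at 22 °C, next to that of mt-Nd2, and -3.05 (SE 0.38) at 30 °C, nearer to the smallest falls. mt-Nd5 had 7931, 7269, 4834 and 6069 FPKM in 22 °C controls and 911, 1012, 812 and 1004 in knockouts. At 30 °C its controls had 5159, 5847 and 6242 and its knockouts 990, 600 and 1285. Its log2 fold changes were -3.09 (SE 0.23) and -2.95 (SE 0.26), so 11.8% and 12.97% of the control level remained.

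mt-Nd6, the member of the other strand, fell as well. Its FPKM was 7522, 7736, 5225 and 7222 in the 22 °C controls and 956.6, 1011, 803 and 904 in the 22 °C knockouts. In the 30 °C controls it was 5044, 8167 and 7293 and in the knockouts 1118, 636 and 1432. The changes were -3.21 (SE 0.24, limma adjusted p = 7.99e-06) and -3.03 (SE 0.28, limma adjusted p = 8.46e-05), with 3 members falling further and 3 less at each temperature. mt-Nd6 was left at 10.8% of control at 22 °C and 12.2% at 30 °C. Since the use of strand is not given, these values may include RNA antisense to mt-Nd6.

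mt-Nd3 and mt-Nd4l, the 2 shortest transcripts of the 7, were listed far below the others. They encode small subunits in the part of the arm next to mt-Nd1. mt-Nd3 had 82.2, 80.1, 48.0 and 100.3 FPKM in 22 °C controls and 12.1, 9.74, 10.6 and 10.5 in knockouts. At 30 °C it had 43.6, 64.0 and 71.4 in controls and 9.57, 5.64 and 13.9 in knockouts. Its falls, -2.99 (SE 0.26) and -2.82 (SE 0.30), were the smallest estimates of the 7. For mt-Nd4l the 22 °C controls had 51.7, 65.1, 42.7 and 32.7 FPKM and the knockouts 6.11, 4.92, 5.92 and 6.31. Its 30 °C values were 46.5, 43.2 and 51.6 in controls and 6.63, 4.0 and 9.25 in knockouts, with changes of -3.09 (SE 0.23) and -2.98 (SE 0.27). The pseudocount of 1 shrinks falls at levels this low. With limma voom on whole reads recovered from the table the changes were -3.10 and -2.98 for mt-Nd3, and -3.30 and -3.20 for mt-Nd4l. In that fit mt-Nd5 had the smallest falls of the 7, -3.09 at 22 °C and -2.95 at 30 °C.

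**Figure D1:**
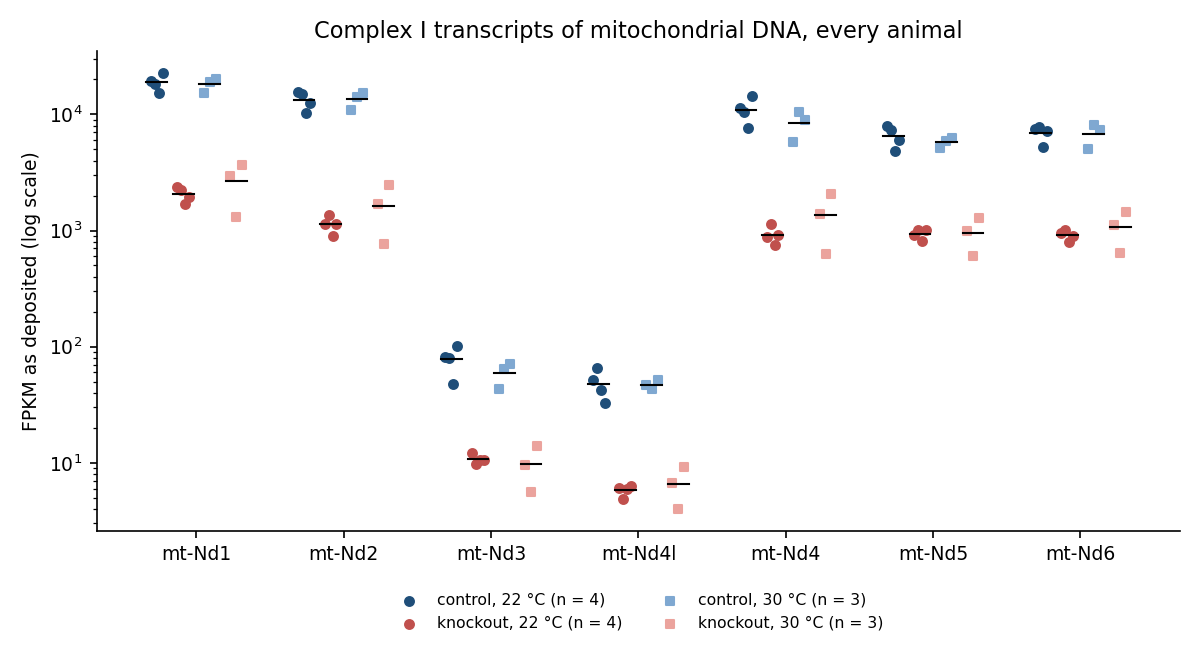
FPKM of the 7 transcripts in each of the 14 animals, on a log axis, with transcripts in their order along the mitochondrial DNA; points are animals and bars are group means. The knockouts lie below all controls of their temperature in all 7, and mt-Nd3 and mt-Nd4l sit at 32.7 to 100.3 FPKM in controls while the other 5 sit at 4834 to 22911.

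Across the 7, the largest adjusted p from limma was 1.54e-05 at 22 °C and 0.000407 at 30 °C. The median log2 fold change of the members was -3.21 at 22 °C and -3.03 at 30 °C, beside 0.0024 and 0.065 over all genes tested. The other 6 mitochondrial protein transcripts, which encode subunits of complexes III, IV and V, all fell too, with medians of -3.50 and -3.33. They ranged from -2.51 (mt-Atp8) to -3.95 (mt-Co1) at 22 °C and from -2.24 to -3.59, for the same pair, at 30 °C. The members lay inside that range at both temperatures. The pseudocount of 1 also shrinks the falls of mt-Atp8, which had 1.05 to 3.57 FPKM and 4 to 13 reads per knockout library. With limma voom on recovered reads its changes were -2.99 at 22 °C and -2.70 at 30 °C. With quantile normalization at 30 °C, mt-Co1 was -0.66 (limma adjusted p = 0.412) and mt-Cytb -1.50 (limma adjusted p = 0.0745), neither called.

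**Figure D2:**
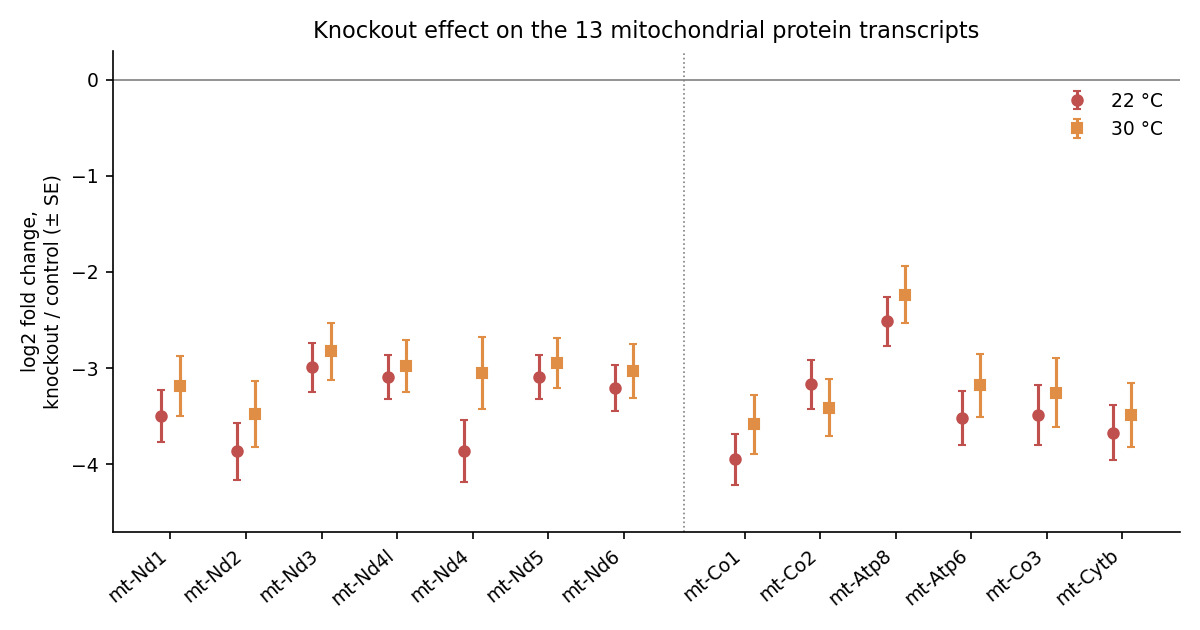
Log2 fold change of knockout over control at 22 °C and 30 °C with its standard error from limma, for the 7 complex I transcripts on the left and the other 6 mitochondrial protein transcripts on the right. All 26 estimates lie below -2.2, and mt-Nd2 and mt-Nd4 are lowest among the complex I transcripts at 22 °C.

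Replicate 2 of the 30 °C knockouts had the lowest value of all 14 animals in each of the 7. It also had the lowest Lrpprc value (5.95 FPKM). Its summed macrophage markers (842 FPKM) were the lowest and its brown adipocyte markers (10327) the highest of the 30 °C knockouts. Its skeletal muscle markers (2133 FPKM) were also the lowest of that group, beside 8611 and 6851. The part of other cells in the values of this library was not tested. Without it the 30 °C changes ran from -2.50 (mt-Nd3) to -2.98 (mt-Nd2), all 7 still called.

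Whether the 7 fell by the same amount was tested within animals. For each of the 21 pairs, the log2 ratio of the 2 transcripts was taken in every library, which largely removes the library's depth and scaling. The pseudocount leaves a part of the scaling in pairs with the low mt-Nd3 or mt-Nd4l. For mt-Nd1 to mt-Nd4l, knockout minus control was -0.31 with scaled values and -0.28 as deposited. Knockouts were compared with controls of the same temperature, and the difference was averaged over both temperatures. The test was an exact two-sided permutation of genotype within temperature, with a smallest possible p of 0.00143. Of the 21 pairs 8 were called after adjustment over the 21, and 5 of the 8 involved mt-Nd2.

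mt-Nd2 fell further than mt-Nd5, mt-Nd6, mt-Nd3, mt-Nd4l and mt-Nd1. The log2 ratio of mt-Nd2 to mt-Nd5 was 0.979, 1.04, 1.09 and 1.05 in the 22 °C controls and 0.307, 0.417, 0.133 and 0.191 in the 22 °C knockouts. The 30 °C ratios were 1.09, 1.28 and 1.29 in controls and 0.767, 0.353 and 0.941 in knockouts. No knockout reached a control at either temperature. The mean difference was -0.65 (95% interval -0.88 to -0.45, exact permutation adjusted p = 0.01), a 1.57-fold larger fall of mt-Nd2.

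Against mt-Nd6 the picture was alike. The log2 ratio of mt-Nd2 to mt-Nd6 was 1.06, 0.954, 0.982 and 0.796 in 22 °C controls and 0.237, 0.420, 0.149 and 0.341 in knockouts. In the 30 °C animals it was 1.12, 0.796 and 1.06 in controls and 0.592, 0.270 and 0.785 in knockouts. The groups did not overlap at either temperature, though at 30 °C the highest knockout (0.785) came close to the lowest control (0.796). The difference was -0.55 (95% interval -0.77 to -0.35, exact permutation adjusted p = 0.01).

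The ratio of mt-Nd1 to mt-Nd2 rose by 0.33 (95% interval 0.15 to 0.52, exact permutation adjusted p = 0.02). In 22 °C controls it was 0.305, 0.290, 0.561 and 0.870 and in knockouts 1.07, 0.723, 0.923 and 0.776. In 30 °C controls it was 0.474, 0.413 and 0.412 and in knockouts 0.819, 0.782 and 0.570. Groups overlapped at 22 °C, where replicate 4 of the controls lay among the knockouts, and did not at 30 °C. mt-Nd2 also fell further than mt-Nd3, by 0.76 (95% interval of the log2 ratio -1.11 to -0.46, exact permutation adjusted p = 0.015). With a pseudocount of 0.1 that log2 ratio changed by -0.64, and with reads and no pseudocount by -0.62, both called. The ratio of mt-Nd2 to mt-Nd4l changed by -0.64 (95% interval -1.03 to -0.28, exact permutation adjusted p = 0.018). The ratio of mt-Nd2 to mt-Nd4 changed by -0.22 (95% interval -0.45 to 0.08, exact permutation adjusted p = 0.212), which was not called. It overlapped at 22 °C, with a difference of -0.0039, and not at 30 °C, with -0.43. Without the 2 controls whose identifiers begin with R it was -0.31 (exact permutation adjusted p = 0.014), and without replicate 4 of the 22 °C controls, one of them, -0.30 (exact permutation adjusted p = 0.006).

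**Figure D3:**
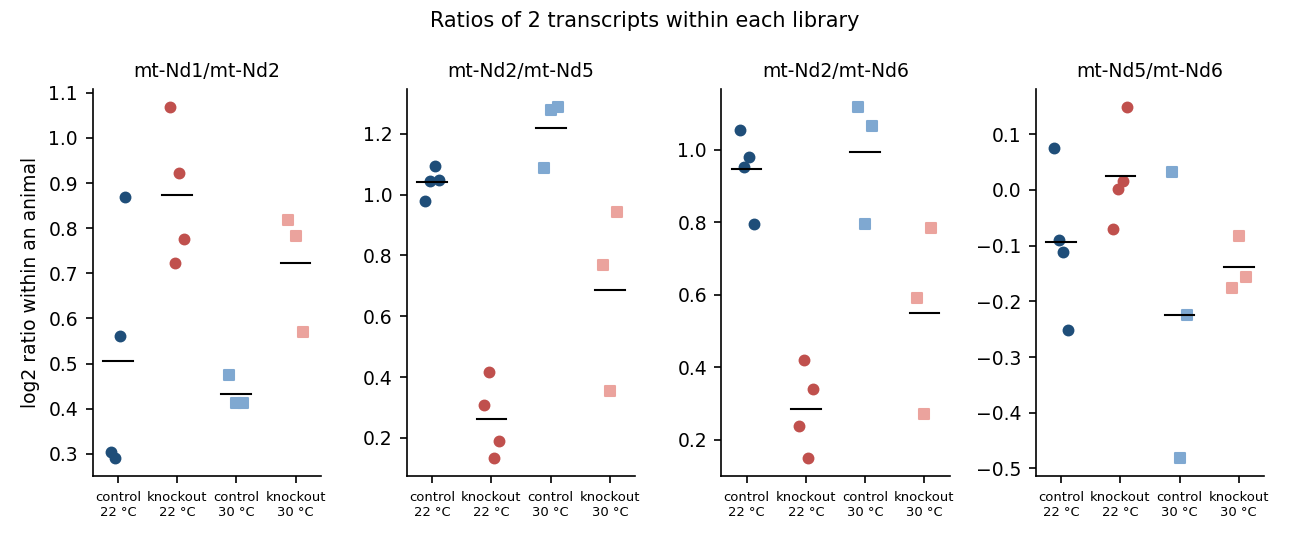
Log2 ratio of 2 transcripts within each animal, for 4 of the 21 pairs; points are animals, bars are group means, and each panel has its own vertical scale. The mt-Nd2 to mt-Nd5 and mt-Nd2 to mt-Nd6 ratios are lower in every knockout than in every control of its temperature, while the mt-Nd5 to mt-Nd6 ratios of the genotypes overlap.

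The other 3 calls were among mt-Nd1, mt-Nd3, mt-Nd4 and mt-Nd5. mt-Nd1 fell further than mt-Nd3, by a log2 ratio of -0.43 (95% interval -0.69 to -0.19, exact permutation adjusted p = 0.01). It also fell further than mt-Nd5, by -0.33 (95% interval -0.58 to -0.09, exact permutation adjusted p = 0.0263). mt-Nd3 fell less than mt-Nd4, by 0.55 (95% interval 0.21 to 0.96, exact permutation adjusted p = 0.0214). That difference was 0.87 at 22 °C, with no overlap, and 0.22 at 30 °C, where the genotypes overlapped. With reads and no pseudocount, the mt-Nd1 to mt-Nd3 (-0.29), mt-Nd2 to mt-Nd4l (-0.41) and mt-Nd3 to mt-Nd4 (0.41) differences were no longer called, with exact permutation adjusted p = 0.055, 0.0633 and 0.0633. Without the 2 controls whose identifiers begin with R, the mt-Nd1 to mt-Nd5 difference was -0.21 (exact permutation adjusted p = 0.105) and that of mt-Nd3 to mt-Nd4 was 0.50 (exact permutation adjusted p = 0.0788). The mt-Nd1 to mt-Nd5 call was also lost, at -0.33 to -0.30, when replicate 2, 3 or 4 of the 22 °C knockouts or replicate 2 or 3 of the 30 °C controls was left out.

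Of its 6 pairs, mt-Nd6 was called different in 1, that with mt-Nd2. Beside its partner on the opposite strand, mt-Nd5, the log2 ratio changed by 0.10 (95% interval -0.06 to 0.27, exact permutation adjusted p = 0.309). That ratio was 0.0763, -0.0897, -0.112 and -0.251 in the 22 °C controls and -0.0704, 0.00204, 0.0161 and 0.1498 in the knockouts. At 30 °C it was 0.0324, -0.482 and -0.224 in controls and -0.175, -0.0833 and -0.156 in knockouts. Knockouts and controls were interleaved at both temperatures. The interval leaves room for mt-Nd6 to have fallen up to 0.27 more, or 0.06 less, than mt-Nd5 on the log2 scale. Against mt-Nd1 the difference was -0.22 (95% interval -0.43 to -0.02, exact permutation adjusted p = 0.0736), and against mt-Nd4 it was -0.34 (95% interval -0.68 to -0.05, exact permutation adjusted p = 0.0633). For mt-Nd3 it was 0.21 (95% interval 0.01 to 0.41) and for mt-Nd4l 0.08 (95% interval -0.26 to 0.44), neither called. With a pseudocount of 0.1 the mt-Nd3 value was 0.0866, and with reads and no pseudocount 0.0718. Several of these rested on 1 library. Against mt-Nd1 the difference was called without replicate 2 of the 22 °C controls (-0.26) or replicate 2 of the 30 °C controls (-0.28). Without replicate 1 of the 30 °C controls the mt-Nd5 to mt-Nd6 difference was 0.17 (exact permutation adjusted p = 0.036). mt-Nd3 to mt-Nd6 was called without replicate 4 of the 22 °C controls (0.27), and mt-Nd4 to mt-Nd6 without replicate 3 of the 30 °C knockouts (-0.40).

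mt-Nd4 gave different values at the 2 temperatures. Its log2 ratio to mt-Nd6 was 0.583, 0.430, 0.558 and 0.988 in 22 °C controls and -0.135, 0.174, -0.107 and 0.00276 in 22 °C knockouts, with no overlap. At 30 °C it was 0.210, 0.367 and 0.290 in controls and 0.319, -0.0235 and 0.523 in knockouts, which overlapped. The knockout difference was -0.66 at 22 °C and -0.02 at 30 °C. Beside mt-Nd5 it was -0.77 and -0.10. Over both temperatures the mt-Nd4 to mt-Nd5 difference was -0.44 (95% interval -0.87 to -0.05, exact permutation adjusted p = 0.0736), and it was called without replicate 3 of the 30 °C knockouts (-0.51) or replicate 1 of the 30 °C controls (-0.52). Whether these differences depend on temperature was not tested. With 4 against 4 animals an exact test cannot go below 0.0286, and with 3 against 3 not below 0.1, so no pair could be called at 30 °C alone, and none was at 22 °C after adjustment.

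mt-Nd4l and mt-Nd4 are known to be carried on a shared messenger RNA. The log2 ratio of mt-Nd4 to mt-Nd4l was 7.74, 7.30, 7.46 and 8.73 in the 22 °C controls and 6.92, 7.56, 6.74 and 6.95 in the knockouts. It was 6.94, 7.90 and 7.41 in the 30 °C controls and 7.49, 6.91 and 7.63 in the knockouts. Genotypes overlapped, and the difference of -0.42 (95% interval -1.04 to 0.13, exact permutation adjusted p = 0.197) was not called. It was -0.22 with a pseudocount of 0.1 and -0.20 with reads and no pseudocount.

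The order of the levels per length was mt-Nd1, mt-Nd2, mt-Nd4, mt-Nd6, mt-Nd5, mt-Nd3 and mt-Nd4l in both control groups. In the 22 °C controls the mean FPKM was 18940 ± 3170 (SD, n = 4) for mt-Nd1, 13369 ± 2432 for mt-Nd2, 10927 ± 2732 for mt-Nd4, 6926 ± 1154 for mt-Nd6 and 6526 ± 1366 for mt-Nd5. mt-Nd3 followed at 77.6 ± 21.8 and mt-Nd4l at 48.1 ± 13.8. Of these neighbours only mt-Nd5 and mt-Nd3 had ranges that did not overlap, with an 84.0-fold step between their means. Within animals, mt-Nd1 exceeded mt-Nd2 in 4 of 4 and mt-Nd6 exceeded mt-Nd5 in 3 of 4.

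In the 22 °C knockouts the means of mt-Nd5, mt-Nd6 and mt-Nd4 lay together. Means were 2063 ± 301 (SD, n = 4) for mt-Nd1, 1129 ± 189 for mt-Nd2, 935 ± 93.8 for mt-Nd5, 919 ± 88.6 for mt-Nd6 and 915.7 ± 165 for mt-Nd4. The last 3 overlapped and were within 1.02-fold of their neighbours, so their order is not resolved. In the 30 °C knockouts the order was that of the controls, with wider spreads of 35.8% to 52.7% of the mean over the 7 members. In the 22 °C knockouts that spread was 9.31% to 18%.

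The 2 members listed lowest were those almost wholly matched by a transcript annotated on a nuclear chromosome. Pieces of mitochondrial DNA inserted in the nuclear genome can be nearly identical to the original, and a read from such a piece cannot be placed with certainty. Of the 50-base windows of mt-Nd3, 98.0% occurred exactly in Gm28438, and of those of mt-Nd4l 98.8% occurred in Gm10222, both on chromosome 1. For mt-Nd4 the share was 62.2%, in Gm28439 of the same chromosome. It was 8.19% for mt-Nd2, 7.61% for mt-Nd5, and 0 for mt-Nd1 and mt-Nd6. Outside complex I, mt-Co2, mt-Co3 and mt-Atp6, with 100%, 99.9% and 99.5% of their windows shared, were likewise listed low, at means of 386, 359 and 240 FPKM in the 22 °C controls. mt-Cytb, with 0 shared, was at 34422, but mt-Atp8, also with 0, was at 13.6. mt-Co1, with 51.1% shared, was at 41407, above mt-Cytb.

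The opening 60 bases of mt-Nd3 and of its copy show how close they are, with the 1 base that differs in capitals (T3C, counted from the first base of mt-Nd3, mt-Nd3 base first).
mt-Nd3: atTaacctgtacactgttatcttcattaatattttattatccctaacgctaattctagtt
Gm28438: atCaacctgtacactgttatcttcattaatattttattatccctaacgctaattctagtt
That is the only difference in 345 aligned bases (99.71% identity). Gm28438 was listed above mt-Nd3 in every library. Its FPKM was 434, 394, 265 and 673 in 22 °C controls and 94.3, 101, 98.7 and 86.0 in knockouts. At 30 °C it was 408, 477 and 657 in controls and 55.2, 38.6 and 97.2 in knockouts. It changed by -2.43 (SE 0.28) at 22 °C and by -3.36 (SE 0.33) at 30 °C on the log2 scale, both called by limma. Gm10222 had 35.7 to 71.4 FPKM in 22 °C controls and 6.54 to 8.33 in knockouts, close to mt-Nd4l, and changed by -2.85 and -3.25. Gm28439 had 60.5 to 87.2 and 5.95 to 9.11 FPKM and changed by -3.58 and -2.91.

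The levels of mt-Nd3 and mt-Nd4l, and their falls, are therefore uncertain, because the sources used here do not show how reads that fit both copies were assigned. The same limit holds for mt-Nd4, over the 62.2% of its windows that occur in Gm28439. mt-Nd3 rested on 38 to 86 reads per knockout library and mt-Nd4l on 23 to 49, while mt-Nd6 rested on at least 6390. When the reads of mt-Nd3, mt-Nd4 and mt-Nd4l were summed with those of their copies, a choice made after the data were seen, 5 of the 21 pairs were called. The differences of mt-Nd2 from mt-Nd5, mt-Nd6 and mt-Nd1 use none of these 3 and were called. That with mt-Nd6 keeps its own limit, since the use of strand is not given.

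**Figure D4:**
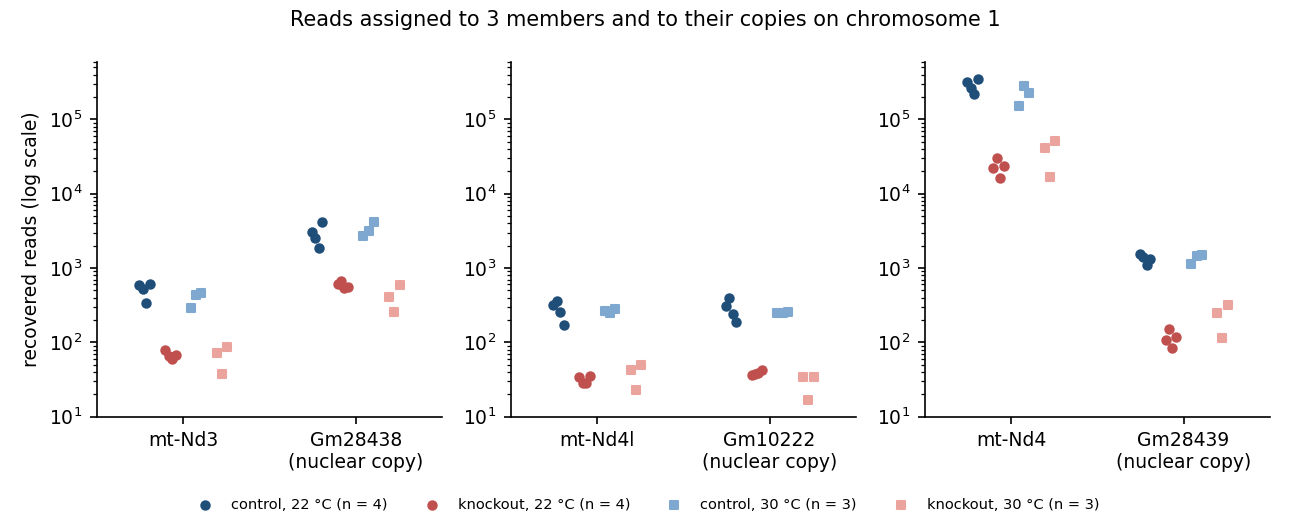
Reads recovered for mt-Nd3, mt-Nd4l and mt-Nd4 and for the transcripts on chromosome 1 that match them, in each animal, on a log axis. The copy of mt-Nd3 holds more reads than mt-Nd3 in all 14 libraries, that of mt-Nd4l about as many, and that of mt-Nd4 far fewer, and all 3 are lower in knockouts.

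Between housing temperatures, none of the 7 was called within controls or within knockouts, whereas 38.8% and 51.1% of all genes were called. Changes at 22 °C relative to 30 °C ran from 0.09 (mt-Nd2) to 0.49 (mt-Nd4) in controls and from -0.33 (mt-Nd4) to 0.29 (mt-Nd3) in knockouts on the log2 scale. Without replicate 2 of the 30 °C knockouts, mt-Nd1 (-0.62), mt-Nd2 (-0.79) and mt-Nd4 (-0.83) were called lower at 22 °C than at 30 °C among knockouts. Without replicate 3 of the 22 °C controls, mt-Nd3 (0.68) was called higher at 22 °C among controls. No difference between the knockout effects at 22 and 30 °C was called for any member by limma's interaction test, with estimates of -0.12 (mt-Nd4l) to -0.81 (mt-Nd4, SE 0.50, limma adjusted p = 0.532). The background share was 0.0%, since limma called 0 of 13079 genes, while 1694 had an unadjusted p under 0.05.

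The members rose and fell together from animal to animal. After subtracting group means, Pearson's r between 2 members over the 14 animals ran from 0.417 (mt-Nd4 with mt-Nd4l) to 0.964 (mt-Nd2 with mt-Nd5), with a median of 0.859 over the 21 pairs. The members of a pair share a library and its scaling. Relative to the mean, the 30 °C knockouts had the widest spread in every member, with their replicate 2 always lowest. The values of r without that library were not computed. Over the 7778 genes outside mitochondrial DNA with a mean of at least 5 FPKM, the 5 most like the members' mean log2 level were Gm10925 (r = 0.996), Gm28661 (0.994), Gm28437 (0.994), Gm28439 (0.991) and Gm29216 (0.979), over 14 samples that form 2 genotype groups. All 5 lie on chromosome 1 and match mitochondrial transcripts in sequence. Lrpprc came at rank 8 (r = 0.956).

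The nuclear genes of complex I changed far less. Of 37 listed subunits 36 were matched, and 5 were called lower and 0 higher at 22 °C, with a median log2 fold change of -0.33. Over all genes tested, lower calls made up 1.06% at 22 °C and 5.28% at 30 °C, and higher calls 0.91% and 8.82%. The 5 were Ndufa1 (-0.92, SE 0.15), Ndufc1 (-0.70, SE 0.14), Ndufb3 (-0.54, SE 0.12), Ndufb5 (-0.47, SE 0.11) and Ndufa7 (-0.44, SE 0.10), all accessory subunits. At 30 °C 31 of 36 were called lower, 0 higher, with a median of -0.61. Ndufa1 (-1.13, SE 0.17), Ndufa3 (-1.11, SE 0.13) and Ndufb3 (-1.01, SE 0.14) fell furthest. Among called subunits and assembly factors the smallest falls were those of Ndufaf5 (-0.44), an assembly factor, and Ndufs4 (-0.43) and Ndufa12 (-0.41), accessory subunits. The counts depended on the fit: at 22 °C the 5 became 1 with the values as deposited and 14 with sample weights, and at 30 °C the 31 became 14 with the values as deposited. Of the 5 called at 22 °C, Ndufa1 lost its call in the fit of the compared groups alone, and each of the other 4 also lost it as deposited, with quantile normalization and with the same nuclear total. The macrophage and brown adipocyte marker sums above moved with genotype at 30 °C, as did fibroblast markers (5 of 5 called higher, summed FPKM 186 to 225 in controls and 469.6 to 883 in knockouts), and their part in these falls was not tested.

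Of 18 assembly factors 17 were matched, and 0 were called at 22 °C and 4 at 30 °C, all lower (Ndufaf2, Ndufaf5, Ndufaf8 and Foxred1), with medians of -0.11 and -0.35. At 30 °C 5.28% of all genes tested were called lower. In the same comparison the members lay at -2.82 or below.

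**Figure D5:**
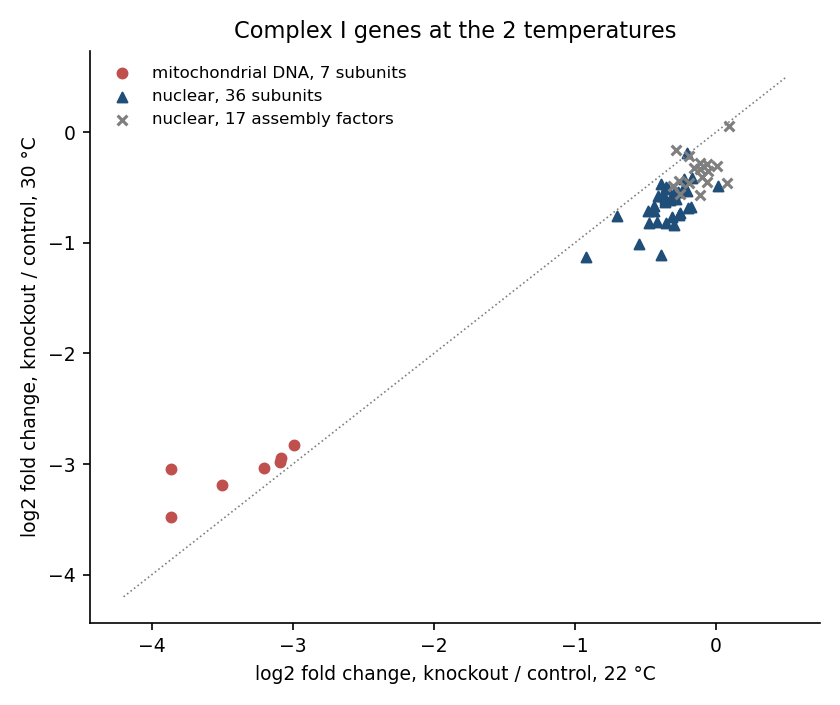
Log2 fold change of knockout over control at 22 °C (horizontal) and 30 °C (vertical) for the 7 mitochondrial subunits, 36 nuclear subunits and 17 assembly factors of complex I, with a dotted line of equal change. The mitochondrial subunits lie between -3.87 and -2.82, and no nuclear gene lies below -1.13.

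Genes that act on mitochondrial RNA or DNA were mostly not called. Of 25 listed, 22 were matched, and 2 were called lower at 22 °C and 5 at 30 °C, Lrpprc among them both times. Lower calls made up 1.06% of all genes tested at 22 °C and 5.28% at 30 °C. At 22 °C Lrpprc (-1.86, SE 0.21) and Hsd17b10 (-0.64, SE 0.10), a subunit of mitochondrial RNase P, were called lower. Slirp, the partner of LRPPRC, was at -0.49 (SE 0.13, limma adjusted p = 0.0759), and was called with sample weights (-0.62) and without the 2 controls whose identifiers begin with R (-0.68). At 30 °C Lrpprc (-2.06), Hsd17b10 (-0.86), the transcription factor Tfb2m (-0.59), the RNA helicase Supv3l1 (-0.59) and Slirp (-0.58, SE 0.15, limma adjusted p = 0.0213) were called lower. None was called higher at either temperature. Tfb2m and Supv3l1 lost their calls with the values as deposited (-0.31 each) and after nuclear transcripts were scaled to one sum (-0.44 each). Tfb2m also lost it with no filter, without the trend, and when any 30 °C animal except knockout replicate 2 was left out, at -0.62 to -0.53. Supv3l1 lost it without knockout replicate 1 (-0.49) or control replicate 2 (-0.53). Slirp lost it in the fit of the 2 groups alone (limma adjusted p = 0.0598) and without knockout replicate 3 (-0.50) or control replicate 2 (-0.49).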

How the data were processed

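Gene expression in brown adipose tissue of 14 mice was deposited by the authors as FPKM, 1 column per animal. The submitters' processing notes name genome build mm9; the aligner, counter and use of strand are not given in the sources used here. Of 35275 Ensembl identifiers 34490 matched GENCODE M21, used for symbols, lengths, strand and sequence, and no coordinates are printed. Libraries were scaled on 10049 nuclear genes by the median ratio to their geometric mean (factors 0.823 to 1.20). Genes with FPKM of at least 1 in at least 3 samples were kept, which left 13079.

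A mean per group was fitted to log2(scaled FPKM + 1) of all 14 animals with limma 3.58.1 in R 4.3.3 (eBayes with trend). An adjusted p under 0.05 was called. Pairs of transcripts were tested on within-animal log2 ratios by exact two-sided permutation of genotype within temperature (1400 relabelings), with 95% intervals from inverting that test. Nuclear copies were found with blastn 2.17.0 and by exact windows of 50 and 100 bases. Depth was recovered from FPKM steps: 88.8% to 91.0% of low values were whole reads within 0.05 reads, and 1525 genes that passed the filter entered voom, which called 9 higher and 40 lower at 22 °C and 109 and 102 at 30 °C. Read numbers cover counting error only. Replicates differed by more than counting error. The labels give each animal its own identifier and no litter or batch. The method was tested on simulated data.

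The 7 members and all lists were chosen with earlier results of these data known. The genes named were the members, Lrpprc, the other mitochondrial protein transcripts, the 3 lowest and 3 highest fold changes among called nuclear complex I genes per temperature, called RNA factors with Slirp, and the 5 genes most like the members. The nuclear copies, the called assembly factors, Ddx3y and Xist were named after their values were seen. Alternatives covered the pseudocount, filter, scaling, model, weights and leaving out animals.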

Additional observations from a re-analysis of the deposited data

Results flagged for a closer look

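In 2 of the 56 sets of 4 animals tested, 1 animal stood further from the rest than Dixon's 95% limit allows. Chance gives about 1 in 20, or 5 in 100. The log2 ratio of mt-Nd1 to mt-Nd3 was 8.28 in replicate 3 of the 22 °C controls and 7.82 to 7.86 in the other 3. The log2 ratio of mt-Nd2 to mt-Nd4 was -0.192 in replicate 4 of the 22 °C controls and 0.423 to 0.524 in the other 3. Both animals carry identifiers that begin with R, unlike all others. They also had the highest skeletal muscle sums of the 22 °C controls (4949 FPKM in replicate 3 and 3096 in replicate 4).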

How the results depend on the processing

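All 7 knockout falls were called under each of 20 alternatives at 22 °C, with log2 fold changes of -4.13 to -2.30, and each of 17 at 30 °C (-3.85 to -1.62); the ends nearest 0 were mt-Nd5 at 22 °C and mt-Nd1 at 30 °C, both with quantile normalization. No paired analysis was possible because animals carry individual identifiers and no replicate numbers shared between groups. The pairs called, 8 of 21, became 5 with recovered reads, 5 with reads summed with nuclear copies, 0 at 22 °C alone, 0 at 30 °C alone, where 3 against 3 animals cannot pass, and 7 to 10 when an animal was left out. mt-Nd2 against mt-Nd1, mt-Nd3, mt-Nd5 and mt-Nd6 was called in 19 of 19 alternatives that kept both temperatures, mt-Nd1 against mt-Nd5 in 13.

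Nuclear subunits called lower at 22 °C, 5 in the report, were 1 with no filter, 1 as deposited, 1 with quantile normalization, 1 with the same nuclear total, 0 with only the groups compared, 14 with sample weights and 1 to 4 when an animal was left out (1 without replicate 1 or 2 of either genotype, 2 without replicate 4 of either). At 30 °C the 31 became 14 as deposited, 17 with quantile normalization and 18 to 32 with an animal left out (18 without knockout replicate 1 or control replicate 2). Assembly factors called lower at 22 °C were 1 with sample weights and 0 in every fit with an animal left out. At 30 °C the 4 became 0 as deposited, 8 with quantile normalization, 1 with the same nuclear total, 13 with sample weights and 0 to 7 with an animal left out (0 without control replicate 2, 2 without control replicate 1 or knockout replicate 1 or 3, 7 without knockout replicate 2). Members called between temperatures, 0 in the report, were 0 to 1 in controls and 0 to 3 in knockouts with an animal left out. The cause of these moves was not tested.

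Signs turned only for effects that were not called. In controls, 22 against 30 °C, mt-Nd2 was -0.0152 as deposited and -0.0917 with quantile normalization, mt-Nd4l -0.00985 as deposited, and mt-Nd5 -0.0573 and mt-Nd6 -0.0111 with quantile normalization. With an animal left out the ranges were -0.0533 to 0.22 (mt-Nd2), -0.0679 to 0.28 (mt-Nd4l) and -0.0699 to 0.29 (mt-Nd6). In knockouts mt-Nd4l was 0.13 and mt-Nd5 -0.14 with quantile normalization, and mt-Nd5 -0.0874 with sample weights. With an animal left out the ranges were -0.62 to 0.15 (mt-Nd1), -0.79 to 0.0732 (mt-Nd2), -0.0287 to 0.56 (mt-Nd3), -0.83 to 0.0534 (mt-Nd4), -0.31 to 0.21 (mt-Nd4l), -0.20 to 0.37 (mt-Nd5) and -0.39 to 0.22 (mt-Nd6). The difference between the knockout effects ranged from -0.49 to 0.10 (mt-Nd3), -0.40 to 0.12 (mt-Nd4l), -0.47 to 0.10 (mt-Nd5) and -0.53 to 0.0809 (mt-Nd6). Among pairs, mt-Nd1/mt-Nd4 was -0.14 at 30 °C alone, mt-Nd3/mt-Nd5 -0.0158 with a pseudocount of 0.1 and -0.0306 with reads. mt-Nd4l/mt-Nd6 was -0.11 with that pseudocount, -0.14 with reads and -0.14 with summed reads, and -0.0173 to 0.18 with an animal left out, and mt-Nd4l/mt-Nd5 was -0.0881 to 0.0331 with an animal left out.

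The number of animals limits the pair tests, and 23 to 86 reads per knockout library limit mt-Nd3 and mt-Nd4l. The unknown assignment of reads that fit a nuclear copy limits mt-Nd3, mt-Nd4l and mt-Nd4. The unknown use of strand limits mt-Nd6.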
